A study of Mus musculus with 60 samples.

Results

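Cytosolic ribosomal proteins are the protein subunits of the ribosomes that translate nuclear-encoded messages. Their genes were taken from the gene table by name: symbols that begin with Rpl or Rps followed by a digit, together with Rpsa, Rplp0, Rplp1 and Rplp2, without the S6 kinases, processed pseudogenes and Rps19bp1. The rule found 85 genes of the 22869 in the table, with 1 transcript per gene. The study sequenced polyadenylated RNA of microglia, the resident macrophages of the brain, from untreated C57BL/6N mice at embryonic day 18 (E18) and postnatal days 4 and 14 (P4, P14). Adult mice at P60 had received saline or lipopolysaccharide (LPS), the outer membrane glycolipid of Gram-negative bacteria that is sensed by Toll-like receptor signalling in macrophages; the labels give neither its dose nor its route. There were 7 libraries at E18 (3 female, 4 male), 8 at P4 (4 and 4), 20 at P14 (10 and 10), 12 at P60 after saline (7 and 5) and 13 at P60 after LPS (6 and 7), by the sex in the library titles. The series' title and design name sex differences over development as its question.

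In 10 libraries, the male E18 replicate 4 among them, the title and the sex characteristic name different sexes, so each value by sex below is by title. No label says which libraries come from separate animals, or how the microglia were isolated, so p-values measure only the spread between these libraries. The labels carry 17 dates, and 0 of them hold more than 1 stage or treatment. Stage or treatment therefore cannot be told apart from date, nor age from the saline injection when P60 is set against earlier stages.

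Each ribosome carries 1 small and 1 large subunit, whose proteins are named Rps and Rpl. The acidic proteins Rplp0, Rplp1 and Rplp2 form the stalk of the large subunit, which recruits elongation factors. Messages for ribosomal proteins are abundant and short, and most start at a C within a run of pyrimidines, the 5′ terminal oligopyrimidine (TOP) element through which mTOR signalling controls their translation. Most mammalian ribosomal protein genes have processed pseudogenes elsewhere in the genome.

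Start-site sequences are shown here for genes that the results below turn on: 2 stalk proteins and a small subunit protein that fell over development, and 2 large subunit genes whose course differed from that of most members. RefSeq (GRCm38.p6) gave start sites for 63 of the 85 genes. Each line runs from 40 bases before to 20 bases from the start site on, and capitals mark the longest unbroken run of C and T. The windows are chr7:141447611-141447670 (plus strand) for Rplp2, chr10:128626487-128626546 (minus strand) for Rps26, chr5:115559427-115559486 (plus strand) for Rplp0, chr3:28805468-28805527 (plus strand) for Rpl22l1 and chrX:74270776-74270835 (plus strand) for Rpl10.
Rplp2: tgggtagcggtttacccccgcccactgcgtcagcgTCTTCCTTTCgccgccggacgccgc
Rps26: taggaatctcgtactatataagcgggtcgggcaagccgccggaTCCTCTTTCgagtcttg
Rplp0: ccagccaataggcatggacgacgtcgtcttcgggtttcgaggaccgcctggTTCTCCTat
Rpl22l1: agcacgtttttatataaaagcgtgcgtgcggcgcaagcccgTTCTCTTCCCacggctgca
Rpl10: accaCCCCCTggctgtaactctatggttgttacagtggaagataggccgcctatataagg

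The run in Rplp2 and the run in Rpl22l1 are 10 bases long, and that in Rps26 is 9. That in Rplp0 is 7 bases long and begins 11 bases after the start site, and that in Rpl10 is 6 bases long and lies before it. A run of 8 or more C and T lay in this window in 57.1% of the 63 matched members, against 27.1% of 26962 other genes, and the median longest run was 9 against 6 bases. Such a run may lie before the start site, outside the message, so these shares do not count TOP elements. The start base itself was C in 31.7% of members and 18.8% of other genes. CTTTC on the sense strand, starting between 5 bases before and 10 after the start, was found in 19% against 2.58%. Over the whole promoter, from 250 bases before to 50 after the start and on either strand, CCGGAAG (an ETS family motif) occurred in 39.7% against 9.86%, GGGCGG (an Sp1 motif) in 61.9% against 38.1%, AAGATGG (part of the YY1 motif) in 15.9% against 7.26%, and TATAAA in 11.1% against 15.7%. These are matches of letters, not measured binding, and a start site that RefSeq places a few bases off moves them.

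Levels are in CPM, the usual scaling of a gene's counts to the total over all genes of its library. Libraries held 802016 to 3497454 counts, with a median of 1907007.5. Per kilobase of transcript, Rpl41 (a very small protein of the large subunit) was among the most abundant members, with a mean of 383 CPM per kilobase over the 60 libraries. The median member stood at 27.02 CPM per kilobase, and 18 members exceeded 100. The 10 genes with the most reads held 55.8% of all member counts. At the other end, Rpl39l stood at 0.958 and Rpl3l at 0.0937 CPM per kilobase. Rpl10l had 0 counts in 60 libraries, which allows up to 0.0278 CPM at the limit of 3 counts and covers counting error only. These last genes are paralogs whose known sites of high expression lie in testis (Rpl39l, Rpl10l) and striated muscle (Rpl3l).

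Rpl13a and Rps3 were among the members that followed the sum of the others most closely across the 60 libraries, with Spearman's rho of 0.947 and 0.946, which describes libraries that also share depth and composition. Many members share sequence with other genes or with pseudogenes. For the median member, 53.1% of the 50-base windows of its transcript occur elsewhere in the annotated transcripts, and 82 of 85 match at least 1 pseudogene. How reads with several matches were counted is not given in the sources used here, so members with a high shared share are uncertain. Rps3 shared 2.96% of its windows, Rpl22 5.20%, Rplp2 30.7%, Rps26 38.3% and Rplp0 41.8%. Rpl22l1 shared 65.6%, Rps27a 72.0% and Rpl10 92.1%.

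Several libraries carried RNA of other cells in amounts that moved with stage. The summed level of 10 microglial markers had a median of 4629.5 CPM at E18 and 33711 CPM at P60 after saline. The 8 neuronal markers in the table summed to 631 to 2855 CPM at E18 and 5.05 to 28.1 CPM at P60 after saline. Red blood cell genes summed to 349 to 2117 CPM at E18 against 58.6 to 449 CPM at P4. Ttr, the choroid plexus transthyretin, took over 10% of the counts in 3 libraries, the male E18 replicates 4 (24.8%) and 3 (10.4%) and the female P60 saline replicate 6 (11.985%). Each list had detected genes at every stage, and Cd3e in the lymphocyte list was the sole listed gene at 0. In bulk RNA, fewer cells of a type and less RNA per cell cannot be told apart, and the part of these cells in the results below was not tested.

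The 85 genes together took a larger share of the counts in the embryo than at any later stage. At E18 the share ran from 0.665% to 2.00% of a library's counts, with a median of 1.10%, and male replicate 4 was the highest (median 0.987% without it). At P4 it ran from 0.523% to 0.625% around a median of 0.595%. At P14 the range was 0.418% to 0.744% with a median of 0.50001%. Every E18 library lay above every P4 library, while P4 and P14 overlapped.

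At P60 the share had a median of 0.347% after saline, with 11 of the 12 libraries between 0.302% and 0.395%. The female saline replicate 6, which also holds the choroid plexus RNA, stood at 0.940%. After LPS the range was 0.241% to 0.549% with a median of 0.357%. The saline and LPS libraries overlapped over most of their range. Within P14 the share also differed by label date, with medians of 0.490%, 0.603% and 0.449% on 3 dates.

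Transcripts of at most 1500 bases other than the members also had a higher median share at E18 than at later stages. They took 10.4% to 43.7% of the counts at E18 (median 14.08%) and 9.97% to 14.9% at P4 (median 11.36%). The range was 8.32% to 17.7% at P14 (median 10.38%) and 9.10% to 27.4% at P60 after saline (median 10.995%). Their median was thus no lower at P60 than at P14, whereas the members' median share fell. The highest values, 43.7% and 27.4%, came from male E18 replicate 4 and female P60 saline replicate 6. Members are short, with a median transcript of 830 bases against 2302 bases for all genes. Each comparison between stages and LPS over saline is therefore given beside the other short genes, and again with the dependence on transcript length removed from every library.

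**Figure D1:**
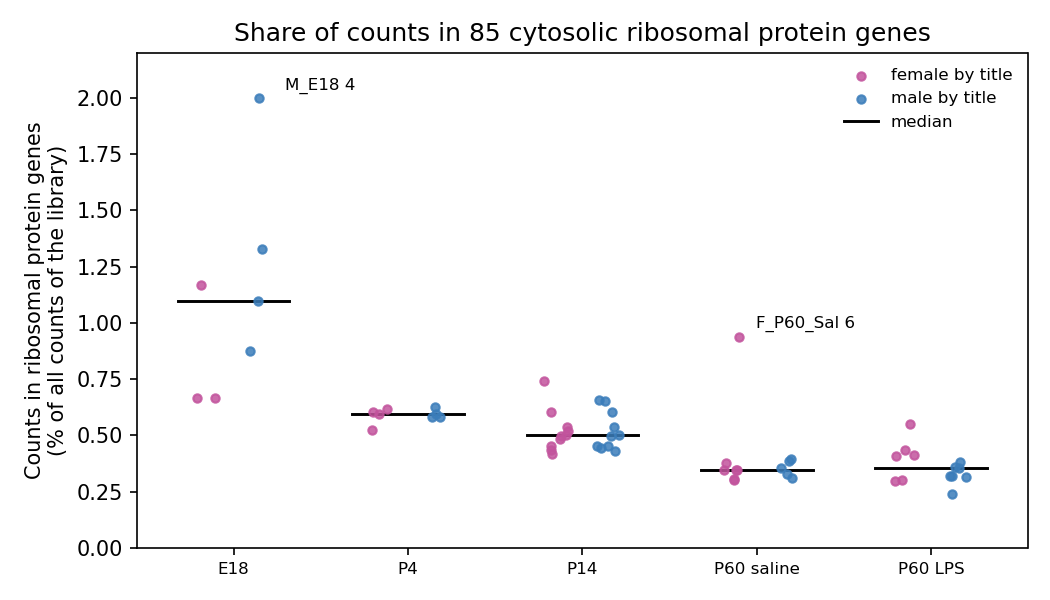
Share of all counts held by the 85 cytosolic ribosomal protein genes (percent, vertical axis) in each library, by stage and treatment; each point is 1 library, coloured by titled sex, and the bar is the group median. The E18 libraries, from 0.665% to 2.00%, lie above all P4 libraries, and the female P60 saline replicate 6 stands at 0.940% above the other saline libraries.

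Between E18 and P4, the members fell broadly across both subunits before transcript length was taken into account. Of 78 members with enough counts to test, 49 were lower at P4 and 1 was higher at a Benjamini-Hochberg adjusted p under 0.05 (edgeR quasi-likelihood test over 13853 genes), where 22.7% of all genes tested were lower and 25.5% higher. The median member changed by -0.76 on the log2 scale. Small subunit genes had 22 of 32 lower (median -0.81) and large subunit genes 27 of 46 lower and 1 higher (median -0.70). In 10 members every P4 library lay below every E18 library, which is 12.8% of them, against 6.34% of all genes. Without male E18 replicate 4 it was 11 members (14.1%), against 12.6% of all genes.

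The stalk proteins were among those that fell. Rplp0, the stalk's base, had 304, 521 and 956 CPM at E18 (lowest, median, highest) and 232, 278.5 and 332 CPM at P4. Rplp2, one of the acidic stalk proteins, had 19.7, 58.1 and 65.6 CPM at E18 and 12.9, 15.9 and 23.0 CPM at P4. The ranges of both genes overlapped in their lowest E18 libraries. Rplp0 fell by 1.006 ± 0.26 on the log2 scale (SE, adjusted p = 0.00142, edgeR) and Rplp2 by 1.23 ± 0.34 (adjusted p = 0.00312). Rplp1, the partner of Rplp2, fell by 1.23 ± 0.44 (adjusted p = 0.0184), a call that was lost without female E18 replicate 2 (adjusted p = 0.107) and with the length trend removed (adjusted p = 0.179).

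In the small subunit, Rps14, a protein of the platform, had 63.1, 157 and 419 CPM at E18 and 52.7, 63.7 and 73.4 CPM at P4, and the groups overlapped in the lowest E18 library. It fell by 1.33 ± 0.27 (adjusted p = 8.34e-05). Rps15, a protein of the small subunit's head, fell by 1.24 ± 0.33 (adjusted p = 0.00208), from a median of 317 to 130 CPM. Rpsa, which is also known as the laminin receptor, fell by 0.93 ± 0.28 (adjusted p = 0.00572).

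In the large subunit, Rpl22 had 207, 321 and 597 CPM at E18 and 124, 133 and 150 CPM at P4, without overlap. It fell by 1.15 ± 0.20 (adjusted p = 7.47e-06). Rpl7 fell by 0.69 ± 0.17 (adjusted p = 9.89e-04), a call that was lost with the length trend removed (-0.22, adjusted p = 0.103). Rpl10, the protein that joins the large subunit late in its assembly, went the other way: 14.9, 19.7 and 33.6 CPM at E18 and 28.3, 30.8 and 33.8 CPM at P4. All E18 libraries but male replicate 4 lay below the P4 range, and the highest of those others was 23.8 CPM. The rise of 0.61 ± 0.21 (adjusted p = 0.0155) missed the threshold with DESeq2's size factors (0.48, adjusted p = 0.0550) and without female E18 replicate 1, female E18 replicate 2 or male E18 replicate 3. Relative to the median of all genes, the rise was 0.58 with edgeR's scaling and 0.57 with DESeq2's.

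**Figure D2:**
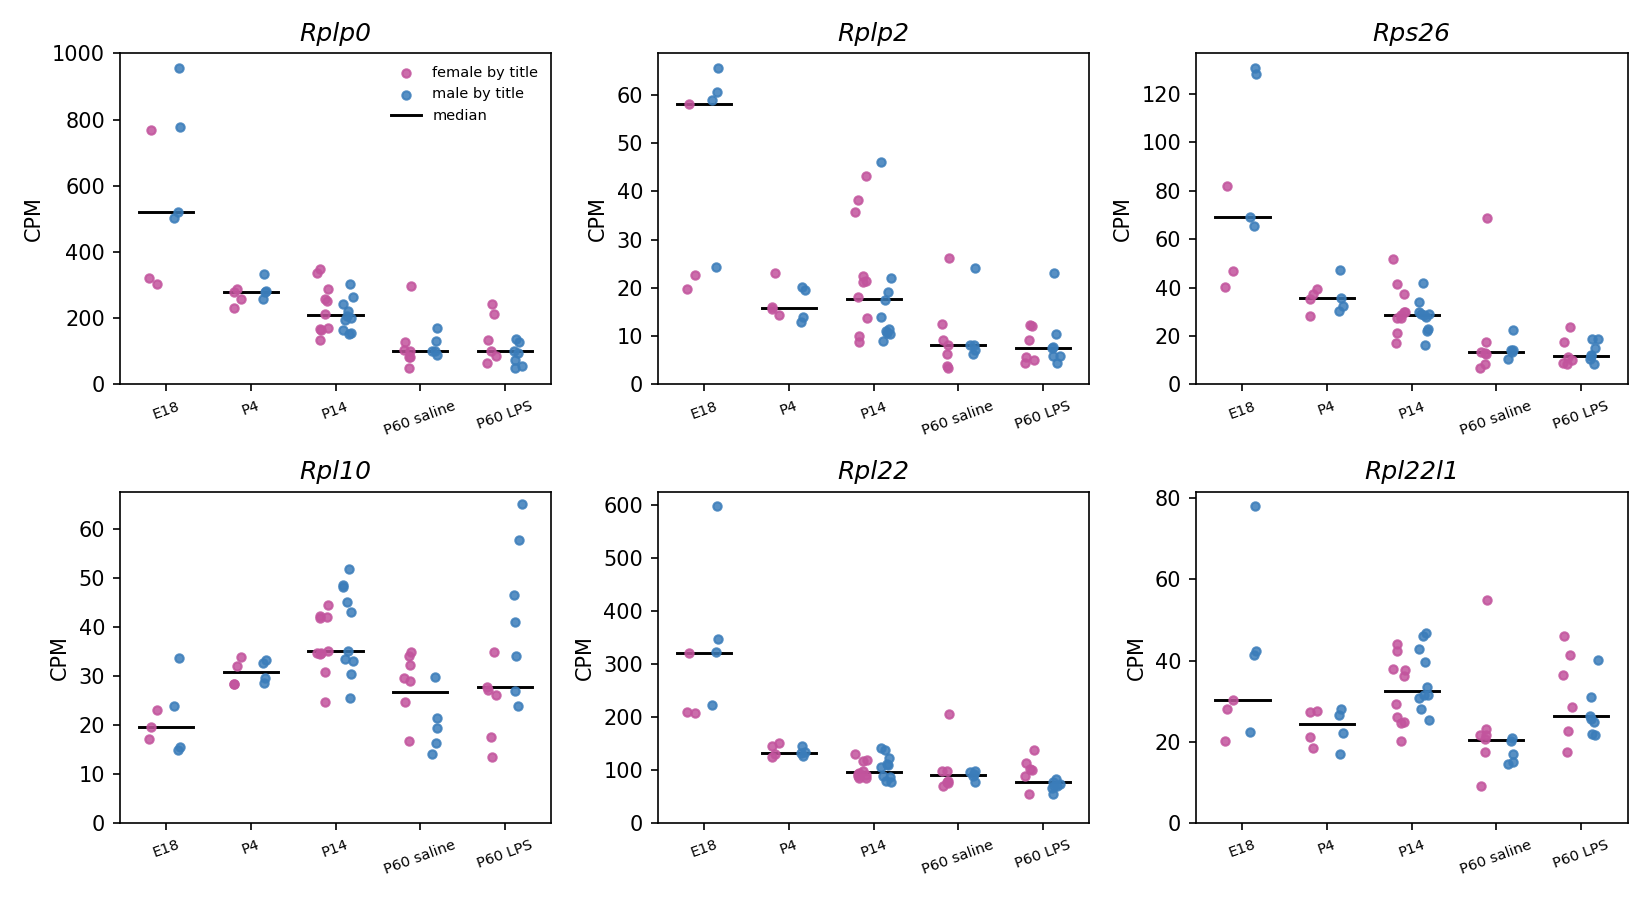
Level in CPM (linear vertical axes from 0) of Rplp0, Rplp2, Rps26, Rpl10, Rpl22 and Rpl22l1 by stage and treatment; points are libraries, coloured by titled sex, and bars are medians. Rpl22 at E18 (207 to 597 CPM) lies above P4 (124 to 150 CPM), whereas Rpl10 at E18 has a median of 19.7 CPM against 30.8 CPM at P4.

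The size of the drop at P4 depended on how short transcripts were treated, as did whether members were lower more often than all genes. The 837 other genes of at most 1000 bases had a median change of -0.60, of which 336 were lower and 86 higher. Without male E18 replicate 4, 39 members were lower (22.6% of all genes) and 1 higher, with a median of -0.56, beside -0.34 for the other short genes. With the length trend removed, 15 members were lower, a share no higher than the 19.8% of all genes, and 4 were higher (25.2% of all genes). The median was then -0.16, beside 0.03 for the other short genes. All 15 were also among the 49. With the trend removed, the changes at P4 were -0.57 for Rplp0 (adjusted p = 0.0140), -0.74 for Rplp2 (adjusted p = 0.0451), -0.54 for Rps14 (adjusted p = 0.00176), -0.50 for Rps15 (adjusted p = 0.0477) and -0.91 for Rpl22 (adjusted p = 3.83e-06). That of Rpl10 was 1.17 (adjusted p = 1.77e-05). With the length trend removed and the 3 libraries over 10% Ttr left out, 29 members were lower (22.6% of all genes) and 1 higher, with a median of -0.36. Among the 31 tested members with at most 50% of windows shared, 25 were lower (median -0.91), and among the other 47, 24 were lower and 1 higher (median -0.65).

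**Figure D3:**
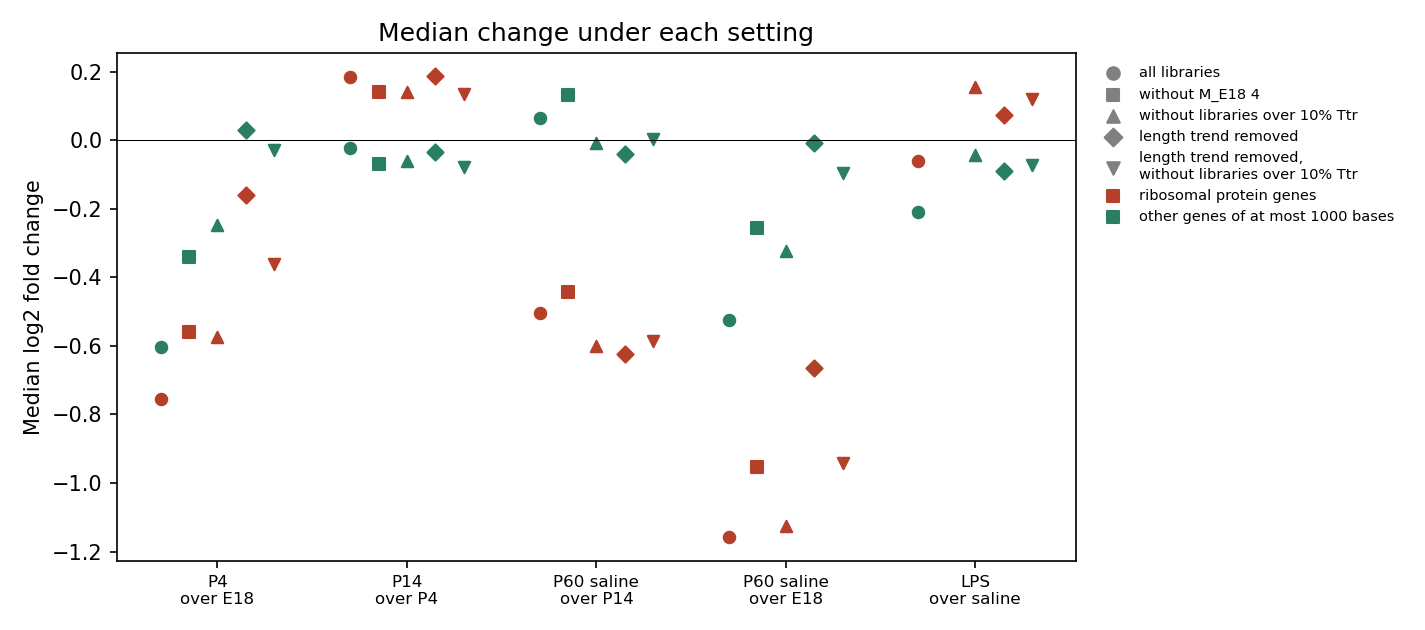
Median log2 fold change (vertical axis) of the members tested (red) and of the other genes of at most 1000 bases (green) in each comparison (horizontal axis); marker shapes stand for all libraries, left-out libraries and the length trend removed. For P4 over E18 the members' median moves from -0.76 to -0.16 when the length trend is removed, while for P60 saline over P14 it moves from -0.50 to -0.62.

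From P4 to P14 few members passed the test. It called 4 of 78 higher and 0 lower, where 20.6% of all genes were higher and 20.8% lower. The median was 0.19, beside -0.02 for the other genes of at most 1000 bases, and with the length trend removed it was 0.19 beside -0.04. Rpl22l1, the paralog of Rpl22, had 17.0, 24.4 and 28.03 CPM at P4 and 20.3, 32.5 and 46.8 CPM at P14. It rose by 0.80 ± 0.21 (adjusted p = 0.00196), with overlapping groups. Rpl10 rose by 0.59 ± 0.17 (adjusted p = 0.00406), to 24.7, 35.2 and 51.8 CPM. The other two, named after their values were seen, are small subunit genes of low count: Rps13 rose by 1.00 ± 0.38 (adjusted p = 0.0301) from a median of 1.87 to 3.44 CPM, and Rps12 by 0.70 ± 0.25 (adjusted p = 0.0191) from 6.93 to 9.73 CPM. All 4 share more than 50% of their windows with other transcripts. The count fell to 2 without male P4 replicate 1 or without female P4 replicate 3, and was 2 with upper quartile scaling (42.3% of all genes), 7 with the length trend removed (all higher, as were 23% of all genes) and 13 with limma-voom (12 higher, 1 lower; 56.6% of all genes).

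From P14 to P60 after saline, many members fell and the other short genes moved in both directions. The test called 44 of 78 members lower and 0 higher, where 25.7% of all genes were lower and 18.5% higher. They were 16 of 32 small subunit and 28 of 46 large subunit genes. The median change was -0.50, beside 0.07 for the 837 other genes of at most 1000 bases, of which 151 were lower and 140 higher. With the length trend removed, 59 members were lower (27.7% of all genes) and 0 higher, with a median of -0.62. In 0 members did every P60 saline library lie below every P14 library (1.81% of all genes), and in 3 of 78 (3.85%, against 2% of all genes) without male E18 replicate 4 and female P60 saline replicate 6.

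Rplp0 went from 135, 209 and 349 CPM at P14 to 50.003, 100.7 and 297 CPM at P60, a fall of 0.88 ± 0.19 (adjusted p = 2.37e-04). Rplp2 went from 8.82, 17.8 and 46.0 CPM to 3.47, 8.10 and 26.2 CPM, a fall of 0.94 ± 0.28 (adjusted p = 0.00507). The groups overlapped in both genes, and in both the female saline replicate 6 gave the highest P60 value. Rps26, a protein of the messenger exit channel, went from 16.3, 28.8 and 51.7 CPM to 6.83, 13.3 and 68.6 CPM and fell by 0.79 ± 0.22 (adjusted p = 0.00356). Rps2 fell by 0.86 ± 0.20 (adjusted p = 5.62e-04) and Rpl10a by 0.91 ± 0.25 (adjusted p = 0.00303), from P14 medians of 9.98 and 9.89 CPM; they share 79.0% and 77.7% of their windows. Among the P4-to-P14 risers, Rpl22l1 fell by 0.73 ± 0.19 (adjusted p = 0.00172) and Rpl10 by 0.65 ± 0.15 (adjusted p = 5.19e-04). Their selection as risers and these falls use the same P14 libraries, so the steps are not independent for them. Rpsa fell by 0.64 ± 0.21 (adjusted p = 0.0135). Leaving out male saline replicate 3 reduced the 44 calls to 29 (41.1% of all genes were then called in either direction), and Rpsa was then not among them (adjusted p = 0.0641).

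Of the 78 tested, 29 were called lower at both steps, 20 at P4 alone, 15 at P60 alone and 14 at neither. The 29 are 59.2% of those lower at P4, while 56.4% of all tested members were lower at P60. They are 65.9% of those lower at P60, while 62.8% of all tested members were lower at P4, so the shares differ little. The P14 libraries do not enter the first contrast and the P4 libraries do not enter the second, so these counts share no group, although 1 fit gave both.

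Over the whole span from E18 to P60 after saline, 63 of 78 members were lower and 1 higher, where 34.8% of all genes were lower and 31.4% higher. The median change was -1.16. Rplp0 fell by 1.92 ± 0.24 (adjusted p = 1.25e-09), Rps26 fell by 1.798 ± 0.27 (adjusted p = 9.46e-08) and Rpsa fell by 1.76 ± 0.26 (adjusted p = 9.72e-08). Rplp2 fell by 1.66 ± 0.32 (adjusted p = 1.74e-05) and Rpl22 fell by 1.39 ± 0.18 (adjusted p = 6.02e-09). The E18 and P60 ranges of Rplp0 did not overlap (304 to 956 against 50.003 to 297 CPM), whereas the female P60 saline replicate 6 put Rps26 (68.6 CPM) and Rplp2 (26.2 CPM) inside the E18 range, as did the male saline replicate 2 for Rplp2 (24.2 CPM). In 5 members (6.41%, against 13.4% of all genes) the groups did not overlap: Rpl13, Rpl22, Rpl31, Rpl4 and Rplp0. Without female P60 saline replicate 6 and male E18 replicate 4 the number was 41 (52.6%, against 25.3%). Leaving libraries out can only raise this number, and that saline replicate had the highest member share at P60 after saline.

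Rplp1 fell by 0.98 ± 0.40 over the span (adjusted p = 0.0282), and this call was lost without male E18 replicate 4, female E18 replicate 2, male P60 saline replicate 1 or male P60 saline replicate 5, and with the length trend removed. Rpl10 was again the exception, higher at P60 by 0.55 ± 0.20 (adjusted p = 0.0144). That call was lost with DESeq2's size factors (0.36, adjusted p = 0.107), with upper quartile scaling, in DESeq2 and without female E18 replicate 1 or male E18 replicate 3. Relative to the median of all genes, the rise was 0.63 with edgeR's scaling and 0.62 with DESeq2's. Without male E18 replicate 4, 57 members were lower (35.4% of all genes) and 1 higher (median -0.95), and with the length trend removed 52 were lower (34% of all genes) and 3 higher (median -0.66). The other short genes had medians of -0.52 in the full set and -0.01 with the length trend removed.

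**Figure D4:**
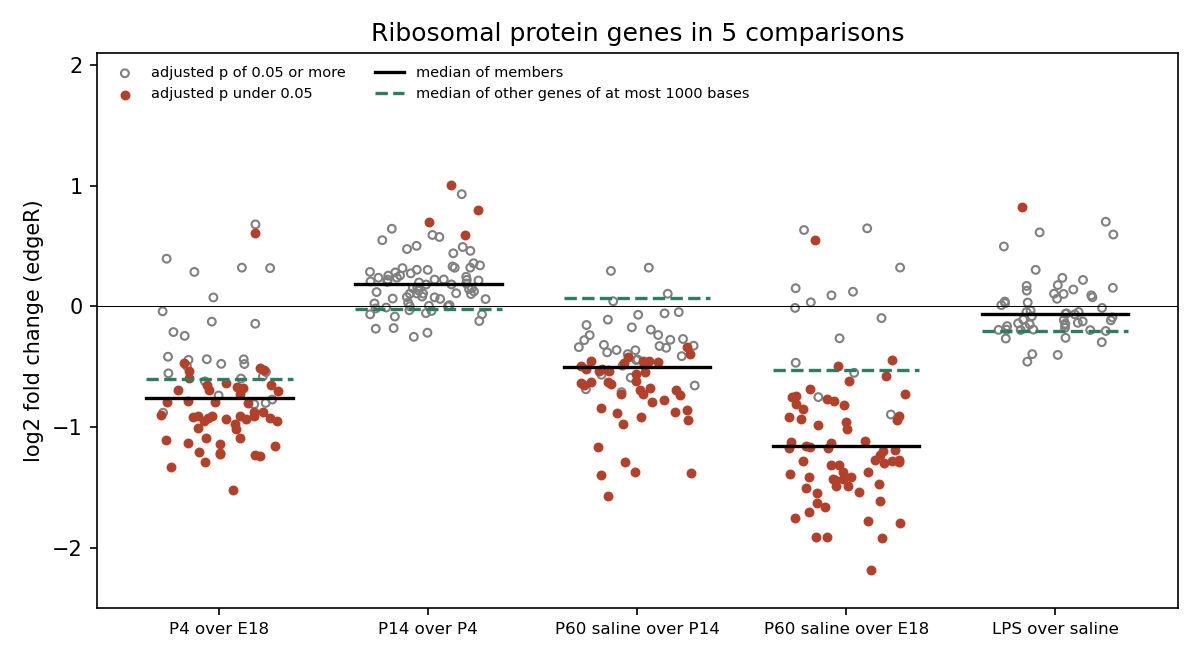
Log2 fold change of each tested member (points) in the developmental steps, the whole span and LPS over saline, with called members filled, the median as a black line and the median of other genes of at most 1000 bases as a dashed line. Most points lie below 0 for P4 over E18 (median -0.76) and P60 saline over P14 (median -0.50), and around 0 for P14 over P4 (0.19) and LPS over saline (-0.06).

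After LPS at P60, few ribosomal protein messages passed the test. Of 55 members tested among 10538 genes, 1 was called higher and 0 lower with edgeR, where 14.4% of all genes were called in either direction and 10.5% higher (3.95% lower). At an unadjusted p under 0.05 there were 5 (26.1% of all genes), and DESeq2 called 3 (17.3% of all genes) and limma-voom 7 (22.7% of all genes). The median change was -0.06, beside -0.21 for other genes of at most 1000 bases. It was 0.07 with the length trend removed and 0.16 without the libraries over 10% Ttr. Rplp0 had 49.0, 99.8 and 241 CPM after LPS, and its change was -0.01 ± 0.26. Rps26 had 8.22, 11.7 and 23.6 CPM after LPS against 6.83, 13.3 and 68.6 CPM after saline.

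The called member, named after its value was seen, was Rps27a, a fusion of ubiquitin with a small subunit protein. It had 2.02, 5.20 and 6.94 CPM after saline and 3.09, 6.76 and 18.7 CPM after LPS, and rose by 0.82 ± 0.25 (adjusted p = 0.0227). The count fell to 0 without any one of 10 libraries: female LPS replicates 1, 5 and 6, male LPS replicates 1, 2 and 7, female saline replicates 1, 3 and 7 and male saline replicate 3. In all of these but the last, Rps27a no longer had enough counts to be tested. The count stayed at 1 but the called member was another without male LPS replicates 3 and 4 (Rpl10, adjusted p = 0.0490 and 0.0405) and without male LPS replicate 6 (Rpl22l1, adjusted p = 0.0424). It was 2 or 3 without any one of female LPS replicates 2, 3 and 4, male LPS replicate 5 and male saline replicates 1 and 2, and 4 without female saline replicate 6 (16.1% of all genes). Except for that last setting, the counts with a library left out come without a share of all genes and show only how calls moved. Rpl22l1 came next, with 9.24, 20.5 and 54.9 CPM after saline and 17.5, 26.3 and 46.2 CPM after LPS. Its change of 0.61 ± 0.21 missed the threshold (adjusted p = 0.0510), and passed it with the length trend removed (adjusted p = 0.00243) and without the libraries over 10% Ttr (adjusted p = 7.60e-04).

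By titled sex, 0 members were called in females (where 5.06% of all genes were called; 0 at an unadjusted p under 0.05, against 14.5% of all genes) and 2 were higher in males, where 11.9% of all genes were higher. By the sex characteristic instead, 5 members were called in males, all lower (14.6% of all genes were called in either direction), with a median of -0.51, and the interaction's median was -0.83. That label counts the female-titled saline replicate 6, with a share of 0.940% and 11.985% Ttr, as male. In males Rpl10 had 14.1, 19.4 and 29.8 CPM after saline and 23.9, 41.0 and 65.0 CPM after LPS. In females it had 16.7, 29.6 and 34.9 CPM after saline and 13.4, 26.6 and 34.97 CPM after LPS. The male groups overlapped between 23.9 and 29.8 CPM, and the female groups overlapped over most of their range. Rpl10 rose in males by 1.18 ± 0.27 (adjusted p = 0.00215), and its change in females was -0.19 ± 0.26 (adjusted p = 0.834).

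The difference between those changes of Rpl10 was 1.37 ± 0.37 with an adjusted p of 0.0575. It passed the threshold with the length trend removed (adjusted p = 0.0399) and without the libraries over 10% Ttr (adjusted p = 0.0444). Over the interaction as a whole, 0 of 55 members were called with edgeR (0.883% of all genes; unadjusted p under 0.05 in 2 members and 21.4% of all genes), 1 with DESeq2 (5.7% of all genes), 2 with limma-voom (12.6%) and 1 with the replicate number as a block (1.22%). Rps27a rose in males by 1.39 ± 0.35 (adjusted p = 0.0050), from 2.02, 4.99 and 5.58 CPM to 5.48, 9.98 and 18.7 CPM. With the sex characteristic in place of the title, the male change of Rpl10 was 0.61 (adjusted p = 0.226) and that of Rps27a 1.13 (adjusted p = 0.0540). Both male calls rest on the sex in the titles, and 92.1% of the windows of Rpl10 occur elsewhere. With any 1 of the 25 libraries left out, the male change of Rpl10 lay between 1.07 and 1.37 (adjusted p at most 0.0108). The male count was 1 without any one of female LPS replicates 1, 5 and 6, male LPS replicates 1, 2, 6 and 7 and female saline replicates 1, 3 and 7, where Rps27a could not be tested, and 5 without female saline replicate 6. Without that library 1 member was called in females and 2 in the interaction. The interaction gave 1 call without female saline replicate 7, male LPS replicate 1 or male saline replicates 1 or 2. These counts with a library left out come without a share of all genes. They show only how calls moved, and are no result about the members.

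Between titled sexes, edgeR called 0 members at any stage or treatment, where 0.0433% of all genes were called at P4, P14 and P60 after saline and 0.142% after LPS. At E18 the direction depended on which sex label was used. By title, the share of counts was 0.877%, 1.10%, 1.33% and 2.00% in the 4 male libraries and 0.665%, 0.668% and 1.17% in the 3 female libraries, so the sexes overlapped. On the 2 dates with both sexes, the male and female libraries stood at 1.33% and 1.17% and at 0.877% and 0.668%, while the other dates held 1 female (0.665%) or 2 male libraries (1.10% and 2.00%). The median of 78 members was 1.00 higher in males on the log2 scale, equal to the 1.00 of other genes of at most 1000 bases. By the sex characteristic, which counts male replicates 1 and 4 as female and female replicate 2 as male, it was -0.54, the opposite direction. At the adjusted threshold 0.0722% of all genes were called. At an unadjusted p under 0.05 there were 48 of 78 members and 18.8% of all genes.

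DESeq2 called 16 members at E18 (2.9% of all genes) and limma-voom 42 (9% of all genes), while edgeR called 21 without male replicate 1 (5.95% of all genes) and 46 without male replicate 2 (18% of all genes). Without male replicate 4 the median was 0.42 with 0 called (unadjusted p under 0.05 in 2 members and 1.66% of all genes), and with the length trend removed it was 0.15. At P4 and at P14 the medians were 0.01, with 0 and 1 members at an unadjusted p under 0.05 (0.332% and 4.73% of all genes). At P60 they were -0.26 after saline (unadjusted p under 0.05 in 8 members and 9.67% of all genes) and -0.22 after LPS (3 members and 16.2% of all genes). Limma-voom called 2 members after saline (1.3% of all genes), and by the sex characteristic the saline median was 0.43, again the opposite direction. That label counts female saline replicate 6 as male and male saline replicate 5 as female. DESeq2 and limma-voom called 0 members between the sexes at P4 and P14.

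Paralog pairs compare members within a library, where depth and a scaling factor cancel but transcript length does not. Rpl22l1 and Rpl22 encode alternative forms of the same RNA-binding protein of the large subunit. The log2 ratio of Rpl22l1 to Rpl22 counts, on counts with 0.5 added, was -3.12 ± 0.27 (SD, n = 7) at E18, -2.54 ± 0.29 (n = 8) at P4 and -1.61 ± 0.34 (n = 20) at P14. It was -2.21 ± 0.38 (n = 12) at P60 after saline and -1.49 ± 0.40 (n = 13) after LPS. The balance thus moved toward Rpl22l1 up to P14, back by P60 and was closer to it after LPS than after saline.

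Permutation tests (two-sided, exact or with 100000 resamples, adjusted over 10 tests) gave a difference of 0.58 for P4 over E18 (adjusted p = 0.00355) and 0.93 for P14 over P4 (adjusted p = 1.93e-05). The difference was -0.61 for P60 saline over P14 (adjusted p = 2.59e-04), 0.91 for P60 saline over E18 (adjusted p = 2.59e-04) and 0.73 for LPS over saline (adjusted p = 2.59e-04). In male libraries the saline ratios ran from -2.71 to -2.13 and the LPS ratios from -1.70 to -0.857, without overlap. In female libraries they ran from -2.85 to -1.68 and from -2.25 to -1.26, and overlapped. The means on the 3 saline dates were -2.002, -2.23 and -2.30, and on the 3 LPS dates -1.38, -1.46 and -1.64. Rpl22l1 shares 65.6% of its windows with other transcripts, and how such reads were counted bears on the level of the ratio. Its transcript is shorter than that of Rpl22, so the balance of short and long transcripts in a library also enters the ratio.

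Rpl7l1, a paralog of Rpl7 known from ribosome assembly, gave a different course. Its log2 ratio to Rpl7 was -1.27 ± 0.29 (SD, n = 7) at E18, -0.54 ± 0.20 (n = 8) at P4 and -0.55 ± 0.25 (n = 20) at P14. It was -0.28 ± 0.28 (n = 12) at P60 after saline and -0.45 ± 0.37 (n = 13) after LPS. The ratio rose by 0.74 from E18 to P4 (adjusted p = 2.59e-04, exact permutation), and its change from P4 to P14 was -0.01 (adjusted p = 0.889, permutation). It then rose by 0.27 to P60 after saline (adjusted p = 0.0107, permutation), and the change with LPS was -0.17 (adjusted p = 0.235, permutation).

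Rpl7l1 itself had medians of 101.5, 94.0, 83.5 and 81.3 CPM from E18 to P60 after saline, while Rpl7 had 234, 142, 121 and 95.4 CPM. The Rpl7l1 transcript is the longer of the pair, at 2606 against 1163 bases, so that the change in the balance of short and long transcripts at E18 enters this ratio. Without male E18 replicate 4 the differences of P4 over E18 were 0.62 for Rpl22l1 to Rpl22 and 0.66 for Rpl7l1 to Rpl7. The pairs Rps27l with Rps27, Rpl39l with Rpl39, Rpl36al with Rpl36a, Rpl10l with Rpl10 and Rpl3l with Rpl3 had fewer than 10 mean counts in at least 1 gene and were not tested. With all transcripts of a gene summed, Rps27l over Rps27 reached that count and changed by -1.69 from E18 to P60 after saline (adjusted p = 0.0248, exact permutation), with adjusted p from 0.22 to 0.903 in the 3 single steps.

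**Figure D5:**
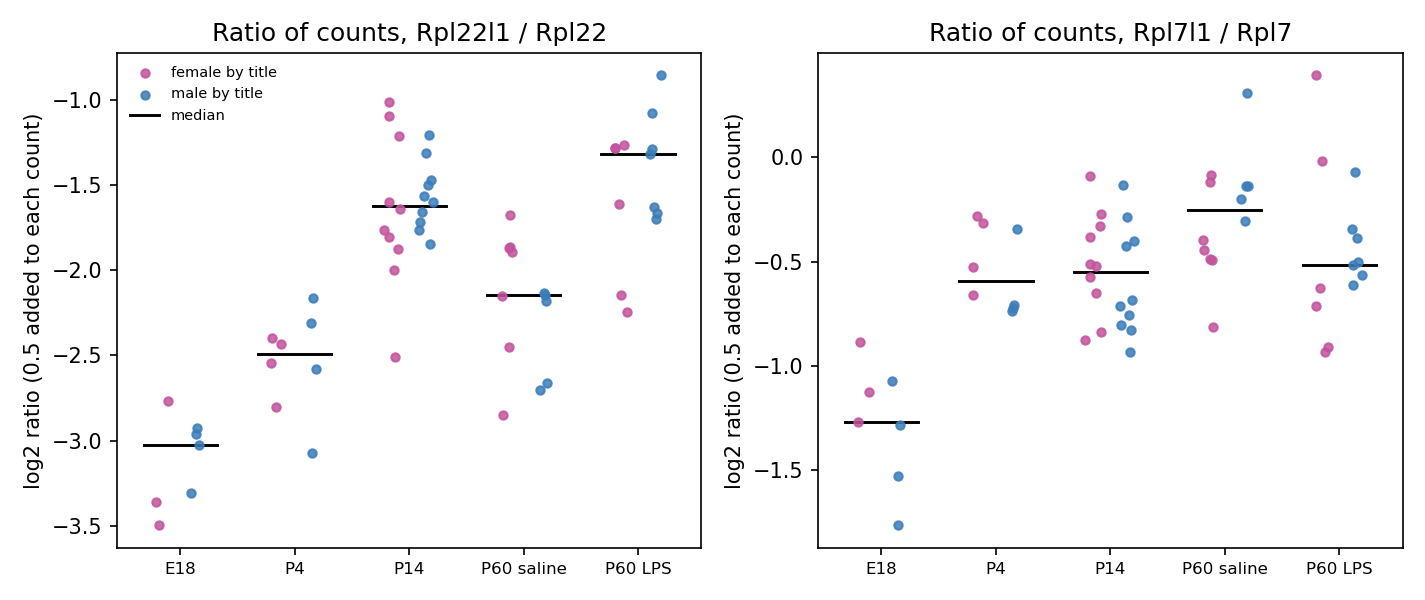
Log2 ratio of Rpl22l1 to Rpl22 and of Rpl7l1 to Rpl7 (vertical axis) in each library by stage and treatment; points are libraries, coloured by titled sex, and bars are medians. The median of the first ratio goes from -3.03 at E18 to -1.62 at P14, -2.15 at P60 after saline and -1.32 after LPS.

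Other genes of translation were counted from lists chosen with earlier results of these data known. Of 12 elongation and nascent chain factors, 8 were lower and 0 higher at P4 against E18 (22.7% and 25.5% of all genes). From P4 to P14, 1 was lower (20.8% of all genes). From P14 to P60 after saline, 7 were lower and 1 higher (25.7% and 18.5% of all genes). Over the whole span, 9 were lower (34.8% of all genes). Eef1g, a subunit of the elongation factor that delivers transfer RNA, fell by 0.87 ± 0.17 at P4 (adjusted p = 4.61e-05) and by 1.55 ± 0.16 over the span (adjusted p = 5.83e-12). Eef2, the translocation factor, fell by 0.88 ± 0.17 at P4 (adjusted p = 6.53e-05). Gnb2l1, which encodes the small subunit scaffold Rack1, fell by 1.06 ± 0.22 (adjusted p = 1.10e-04), or by 0.61 with the length trend removed (adjusted p = 2.25e-04). The median of this list at P4 was -0.72, close to the -0.76 of the members in the same setting. With the length trend removed it was -0.52 (7 lower, 1 higher), a larger fall than the members' median in that setting, given above. Without male E18 replicate 4 it was -0.49 (8 lower).

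Of 28 initiation factors and poly(A) binding proteins, 14 were lower and 3 higher at P4 (22.7% and 25.5% of all genes). At P14, 5 were higher (20.6% of all genes). At P60 after saline, 19 were lower and 1 higher (25.7% and 18.5% of all genes). Eif4a1, the helicase that unwinds messenger leaders, fell by 1.12 ± 0.12 from P14 to P60 (adjusted p = 9.46e-10) and rose by 0.71 ± 0.12 after LPS (adjusted p = 6.13e-05). Of 7 snoRNA host genes, several of which also carry TOP elements, 4 were lower at P4 (22.7% of all genes). It was 1 without male E18 replicate 4 (22.6% of all genes) and 2 with the length trend removed (19.8%). At P14, 5 were higher (20.6% of all genes), and at P60 after saline 5 were lower (25.7%). Snhg5 moved in each step, by -1.51 ± 0.16 (adjusted p = 4.57e-10), 0.89 ± 0.14 (adjusted p = 1.19e-06) and -0.82 ± 0.12 (adjusted p = 6.48e-07).

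Ribosome biogenesis genes moved in both directions at P4: of 35, 12 were higher and 8 lower (25.5% and 22.7% of all genes), with a median of 0.05. Without male E18 replicate 4, 8 were higher and 7 lower (22.6% of all genes were then lower), with a median of -0.17. From P14 to P60 after saline, 14 were lower and 2 higher (25.7% and 18.5% of all genes), and 7 were higher without that library. After LPS, 9 of 34 were higher and 2 lower (10.5% and 3.95% of all genes), while 1 of 55 members was called. Nop58, a box C/D snoRNP protein, rose after LPS by 1.30 ± 0.18 (adjusted p = 1.87e-06), and Gnl3, the nucleolar GTPase nucleostemin, by 1.22 ± 0.17 (adjusted p = 3.17e-06). Gnl3 had fallen by 1.52 ± 0.17 from P14 to P60 after saline (adjusted p = 1.89e-09). Ddx21, a nucleolar helicase, rose after LPS by 0.81 ± 0.13 (adjusted p = 2.59e-05).

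Of 22 genes of mTOR signalling and translation control, 9 were higher and 2 lower at P4 (25.5% and 22.7% of all genes). Without male E18 replicate 4, 5 were higher. Over the whole span, 11 were higher and 2 lower (31.4% and 34.8% of all genes). Eif2ak2, the interferon-induced kinase PKR that halts initiation, rose by 1.79 ± 0.20 at P4 (adjusted p = 9.29e-10) and by 1.22 ± 0.16 after LPS (adjusted p = 1.21e-06). Eef2k, the kinase that inhibits Eef2, rose by 1.52 ± 0.19 from P4 to P14 (adjusted p = 1.07e-08). Tpt1, a TOP message outside the ribosome that the elongation list holds, rose after LPS by 0.74 ± 0.21 (adjusted p = 0.0154). Neutrophil markers summed to 17.5 to 401 CPM in the saline libraries and 338 to 5442 CPM in the LPS libraries, and their part in the LPS values was not tested.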

How the data were processed

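The deposited table holds the authors' whole-number read counts per transcript, with a gene symbol and a mark for the preferred transcript. CASAVA 1.8.2, edgeR and mouse build mm9 are named per the submitters' processing notes. The kit was a stranded polyA kit per the labels' protocols, and an aligner, a counter, the use of strand and the handling of multiply matching reads were not given in the sources used here. Members and gene lists were chosen with earlier results of these data known.

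One transcript was kept per gene (the marked one, otherwise the one with the highest total; 13 members carried no mark). Counts were scaled by TMM, filtered with filterByExpr and tested with edgeR 4.0.16 (quasi-likelihood, robust; R 4.3.3), with Benjamini-Hochberg adjustment over all genes and a threshold of 0.05. Fold changes are log2. One fit held 47 libraries in 8 groups of stage and titled sex, and another 25 libraries at P60 in 4 groups; sexes were averaged with equal weight. The untested members were Rpl10l, Rpl28, Rpl36a, Rpl38, Rpl39l, Rpl3l and Rps29 in the first fit. DESeq2 1.42.0, limma-voom (limma 3.58.1), other scalings, no filter, other transcript choices, a replicate block, the sex characteristic and left-out libraries were alternatives. The length trend was removed with a loess offset per library (span 0.4) on transcript lengths of the GRCm38 annotation, which is not the build of the counts. Offsets from coding transcript lengths, and from the length trend with the libraries over 10% Ttr left out, were added after seeing the data. Scripts were tested on simulated data.

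Named members were, per comparison, up to 5 largest called rises and falls at a mean of at least 10 CPM and called members against the common direction, plus the stalk proteins, Rpsa, paralog pairs and the members of highest and lowest level per length; others are named as chosen afterwards. Some items that this rule selects are not reported here. In related lists up to 3 called genes of smallest p per comparison could be named. Same-numbered male and female libraries deviated together at P4 (4 of 4 pairs, r from 0.345 to 0.423, each best matched by its own number), so the numbers pair libraries there. At P14, 8 of 10 pairs had r over 0.1 (mean 0.219, against -0.0244 for other numbers), but only 1 of 10 was best matched by its own number. At E18 2 of 3 pairs had r over 0.1, at P60 4 of 5 after saline and 0 of 6 after LPS. The main fits and the permutation tests of ratios ignored any such pairing. The replicate block was an alternative for the fits only. It gave each number a shared effect across all stages of a fit, so it did not model pairs within a stage. No 2 libraries of a group agreed within sampling noise (lowest chi-square per gene 1.96 over 178 pairs).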

Additional observations from a re-analysis of the deposited data

Results flagged for a closer look

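In groups of 4 to 10 libraries, a highest or lowest library that stood far from the others (Dixon's 95% criterion) was sought in 63 groups and measures. The criterion's rate of 1 in 20 is for independent values, while these measures overlap, so it is no yardstick for the count. Such a library was found in 10 of the 63. The female P60 saline replicate 6, with 11.985% of its counts on Ttr, stood apart in 4 of them: its summed share of 0.940% against 0.302% to 0.380% in the other 6 female saline libraries, its Rplp0 level of 296.8 CPM against 50.003 to 129 CPM, its Rplp2 level of 26.2 CPM against 3.47 to 12.5 CPM, and its Rpl22l1 level of 54.9 CPM against 9.24 to 23.1 CPM.

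Rplp2 stood apart in 4 more libraries: 24.3 CPM in male E18 replicate 3, below the 58.9 to 65.6 CPM of the other males, 46.0 CPM in male P14 replicate 6 against 9.05 to 22.1 CPM, 24.2 CPM in male P60 saline replicate 2 against 6.29 to 8.17 CPM, and 23.0 CPM in male P60 LPS replicate 5 against 4.51 to 10.4 CPM. The log2 ratio of Rpl7l1 to Rpl7 was -0.34 in male P4 replicate 4, against -0.74 to -0.71 in the other male P4 libraries. It was 0.31 in male P60 saline replicate 2, against -0.31 to -0.14 in the others.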

How the results depend on the processing

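The members' medians at P4 over E18, P60 saline over P14 and P60 saline over E18 stayed below 0 under every setting run. The cause of the changes below was not tested. In the main setting, 14.4% of all genes were called after LPS, 5.06% in females and 0.883% in the interaction, and 11.9% were higher in males. Without female P60 saline replicate 6, 16.1% were called after LPS. Where no share of all genes is given for a setting, a count shows only how calls moved, and is no result about the members. With the length trend removed, 19 members were called at P4 over E18 (median -0.16), 7 at P14 over P4, 2 after LPS, 7 after LPS in males and 1 in the interaction, and the medians were -0.66 over the whole span and 0.15 for males over females at E18; Rpl36al over the whole span reversed to 0.0305. Coding transcript lengths gave -0.42 at P4 over E18, 3 called after LPS, 5 in males, 1 in the interaction and 0.47 between the sexes at E18. Without the libraries over 10% Ttr, 4 were called after LPS, 1 in females (median 0.28), 5 in males and 2 in the interaction, with 0.42 between the sexes at E18; with the length trend removed as well, 30 at P4 over E18 (median -0.36), 3 after LPS, 9 in males, 1 in the interaction and 0.25 between the sexes at E18. Limma-voom called 13 at P14 over P4, 42 and 2 between the sexes at E18 and P60 saline, 7 after LPS, 1 in females (median 0.31), 5 in males and 2 in the interaction. DESeq2 called 16 between the sexes at E18, 3 after LPS and 1 in the interaction. Upper quartile scaling called 2 at P14 over P4, and no filter and the transcript of highest total each called 2 after LPS.

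With the sex characteristic, the medians between the sexes were -0.54 at E18 and 0.43 at P60 saline, 1 was called after LPS in females (median 0.32) and 5, all lower, in males (median -0.51), and the interaction's median was -0.83. Among other swaps, that label counts male E18 replicate 4 as female and female P60 saline replicate 6 as male. Summing all transcripts gave median shares of 0.455% at P4, 0.381% at P14 and 0.276% after LPS. The replicate number as a block called 51 members at P4 over E18, 46 at P60 saline over P14, 65 over the whole span and 1 in the interaction, and moved no other count by over 1.5 times.

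Leaving out 1 library at a time gave 37 to 59 called at P4 over E18, 2 to 4 at P14 over P4, 29 to 50 at P60 saline over P14, 58 to 66 over the whole span, 0 to 46 (median 0.42 to 1.19) between the sexes at E18, 0 to 4 after LPS, 0 to 1 in females (median -0.20 to 0.28), 1 to 5 in males and 0 to 2 in the interaction. Members below about 10 CPM rest on few reads, and 55 of 85 could be tested at P60.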
